A study of Arabidopsis thaliana with 12 samples.

Results

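The 10 genes described here make salicylic acid, switch on its synthesis, or relay and restrain its signal in Arabidopsis thaliana: ICS1 (AT1G74710), EDS5 (AT4G39030), PBS3 (AT5G13320), CBP60G (AT5G26920), SARD1 (AT1G73805), EDS1 (AT3G48090), PAD4 (AT3G52430), SAG101 (AT5G14930), NPR1 (AT1G64280) and NIMIN1 (AT1G02450). They were chosen by identifier, with earlier results of these data known, so the counts below are not independent evidence. Of these, 10 of 10 are among the 32667 genes of the deposited table that have an identifier of their own. The table names PBS3 by its family name GH3.12 and NIMIN1 as NIMIN-1.

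Messenger RNA was sequenced from 10-day-old seedlings of ecotype Columbia in 4 conditions with 3 libraries each. The seedlings of every condition carry tfIIs-1 (SALK_056755), an insertion allele that disrupts TFIIS, a factor that helps stalled RNA polymerase II resume elongation, so the native gene is disrupted in every condition, controls included. In addition they carry an inducible transgene for GFP-TFIIS or for GFP-TFIISmut, a mutated form of the protein. Seedlings received 2 mM estradiol (the concentration printed in the labels) or ethanol as mock for 24 h. The conditions are called TFIIS mock, TFIIS induced, TFIISmut mock and TFIISmut induced. The labels give neither the promoter behind the transgene nor how many independent lines were used. Each condition is 1 pooled value per gene in FPKM (sequenced fragments corrected for the length of the transcript and the size of the library), so no value has an error and no difference was tested against the spread between seedlings. Which column is which condition was read from abbreviated column names, and every value below rests on that reading.

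Salicylic acid is a defence hormone of plants. In the isochorismate route, ICS1 makes isochorismate in the chloroplast, EDS5 exports it, and PBS3 joins it to glutamate to give a conjugate that breaks down to salicylic acid. The transcription factors SARD1 and CBP60g bind the ICS1 promoter and activate it. EDS1 forms exclusive pairs with PAD4 or SAG101 that act downstream of intracellular immune receptors, and the EDS1-PAD4 pair also raises salicylic acid. NPR1 binds salicylic acid and serves as coactivator of TGA factors at target genes, and NIMIN1 binds NPR1 and dampens that output.

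The promoters of 4 of these genes are shown because they mark the range of the results: ICS1, the committed enzyme; SARD1, its activator; NIMIN1, which had the largest induction difference; and NPR1, which had the smallest. Each is the 250 bases before the annotated gene start in TAIR10.1 from RefSeq, read on the strand of the gene, 5′ to 3′. They lie at chr1:28070045-28070294 (plus strand), chr1:27749249-27749498 (minus), chr1:498540-498789 (minus) and chr1:23855659-23855908 (minus). Capitals mark matches, on either strand, to TTGAC (the core of the W box of WRKY factors), TGACG (TGA factors), GAAATTT (CBP60g and SARD1) and CGCG (the core read by CAMTA factors).
ICS1: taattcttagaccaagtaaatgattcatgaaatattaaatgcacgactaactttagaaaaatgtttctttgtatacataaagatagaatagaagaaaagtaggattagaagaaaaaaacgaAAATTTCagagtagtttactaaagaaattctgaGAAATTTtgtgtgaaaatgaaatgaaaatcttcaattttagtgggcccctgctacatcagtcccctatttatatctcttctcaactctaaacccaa
SARD1: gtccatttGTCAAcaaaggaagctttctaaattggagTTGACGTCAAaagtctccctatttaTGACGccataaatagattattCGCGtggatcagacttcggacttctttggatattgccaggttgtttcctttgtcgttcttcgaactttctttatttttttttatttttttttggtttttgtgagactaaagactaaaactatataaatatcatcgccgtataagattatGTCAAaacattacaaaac
NIMIN1: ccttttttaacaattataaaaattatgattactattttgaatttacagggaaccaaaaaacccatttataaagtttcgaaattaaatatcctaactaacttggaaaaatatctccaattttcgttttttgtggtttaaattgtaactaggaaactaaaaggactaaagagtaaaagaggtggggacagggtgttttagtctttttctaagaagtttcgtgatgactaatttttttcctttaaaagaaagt
NPR1: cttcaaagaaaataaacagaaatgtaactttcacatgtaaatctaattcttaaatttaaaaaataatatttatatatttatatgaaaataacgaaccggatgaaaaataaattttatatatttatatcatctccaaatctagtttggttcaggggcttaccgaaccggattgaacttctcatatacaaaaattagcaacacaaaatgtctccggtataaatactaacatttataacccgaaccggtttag

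The ICS1 window holds 2 matches to GAAATTT and none to the other motifs, and 2.1% of 27438 protein-coding windows of this length hold as many or more. The SARD1 window holds 4 matches to TTGAC, a number reached by 0.722% of windows, and 3 to TGACG, reached by 0.583%. The NIMIN1 and NPR1 windows hold no match to any of the 4. The SARD1 matches overlap where TTGAC and TGACG share letters, so they are not separate counts. The stretch TTGACGTCAA there reads the same on both strands, so each of these motifs matches it on both. Each share above belongs to the highest count among the 10 genes, a picked maximum. Over the 10 genes, 4 windows hold TTGAC (EDS5, SARD1, EDS1 and SAG101), against 44.9% of all windows. The other motifs are in 1 window each, against 18.6% of all windows for TGACG, 12.5% for GAAATTT and 2782 of the 27438 for CGCG. A match is a run of letters in a short window and no evidence of binding.

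In TAIR10.1 the genes span 623 bp (NIMIN1) to 4459 bp (SARD1) and lie on chromosomes 1 (ICS1, SARD1, NPR1, NIMIN1), 3 (EDS1, PAD4), 4 (EDS5) and 5 (PBS3, CBP60G, SAG101). ICS1, from 28070295 to 28074177 on chromosome 1, has 12 or 13 exons, and NIMIN1, from 497917 to 498539 on the same chromosome, has 1. The gene models of 3 members overlap a neighbour on the opposite strand, and no source used here says whether the authors counted by strand. EDS5 shares 213 bp with AT4G39040, which stood at 115 FPKM in TFIISmut mock and 97.7 in TFIISmut induced, well above EDS5 itself. SARD1 shares 640 bp with GIP2 (AT1G73790), at 13.5 FPKM or more in every pool. NPR1 shares 38 bp with the pseudogene AT1G64270, at 1.88 to 2.90 FPKM, and also spans the non-coding gene AT1G08667. The intervals printed in the deposited table overlap these neighbours differently. They cover 1545 bp of AT4G39040 for EDS5, 3 bp of GIP2 for SARD1 and 2214 bp of AT1G64270 for NPR1. Whether fragments from a neighbour were counted for these members is not known. None of the 3 neighbours that have a row moved with its member by more than 1.5-fold between the TFIISmut pools.

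The induced gene itself, TFIIS (AT2G38560), stood at 21.1 FPKM before and 742 after induction in the TFIIS line, and at 17.6 before and 87.0 after induction in the TFIISmut line. This row cannot separate transcripts of the transgene from those left of the native locus. Between 13671 and 13939 genes per pool reached 5 FPKM, and read depth is unknown. Tissue markers checked the seedling label, and none of the 15 described here was at 0 in any pool. Their summed FPKM, in the order TFIIS mock, TFIIS induced, TFIISmut mock and TFIISmut induced, were 5438, 4559, 5711 and 2734 for 4 mesophyll genes, and 37.0, 39.6, 36.7 and 18.6 for 4 guard cell genes. For 4 vascular genes the sums were 97.9, 93.1, 97.0 and 63.1, and for 3 meristem genes 3.63, 3.47, 3.79 and 5.20. The meristem sum is mostly STM, the only 1 of the 3 to reach 1 FPKM, at 3.55 in TFIISmut mock and 4.71 in TFIISmut induced. In the same pools CLV3 was at 0.206 and 0.466 FPKM, and WUS went the other way, at 0.0335 and 0.0223. The TFIISmut induced pool thus had the lowest sum for the mesophyll, guard cell and vascular genes and the highest for the meristem genes, beside every difference described below. The part of these markers in those differences was not tested. In whole seedlings, fewer cells of a type and less RNA per cell cannot be told apart.

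Expression of the mutated protein was compared first with its own mock, to ask how these genes stand once GFP-TFIISmut is made. Every one of the 10 genes was highest in the TFIISmut induced pool. The share of all genes that were highest there was not computed, so whether this count is unusual is not known. A gene is called higher or lower here when its log2(FPKM + 1) values differ by at least 1 (2-fold on that scale) and the larger FPKM is at least 5. By this rule 9 of the 10 were higher and 0 lower, NPR1 being the exception, while of 14456 eligible genes 5.51% were higher and 1.69% lower (7.19% in either direction). The median difference over the 10 was 2.1, against 0.05 over all eligible genes. Differences on this scale understate those of genes with low FPKM, so ratios of FPKM are given beside them.

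The 5 members under 5 FPKM in TFIISmut mock (EDS5, PBS3, CBP60G, SARD1 and NIMIN1) are eligible only because they are high in the induced pool. Among the 5 that reach 5 FPKM in the mock pool, 4 were higher, against 2.99% of 13652 genes at that mock level. The pooled values of the 10 are shown in the plot of levels by pool.

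**Figure D1:**
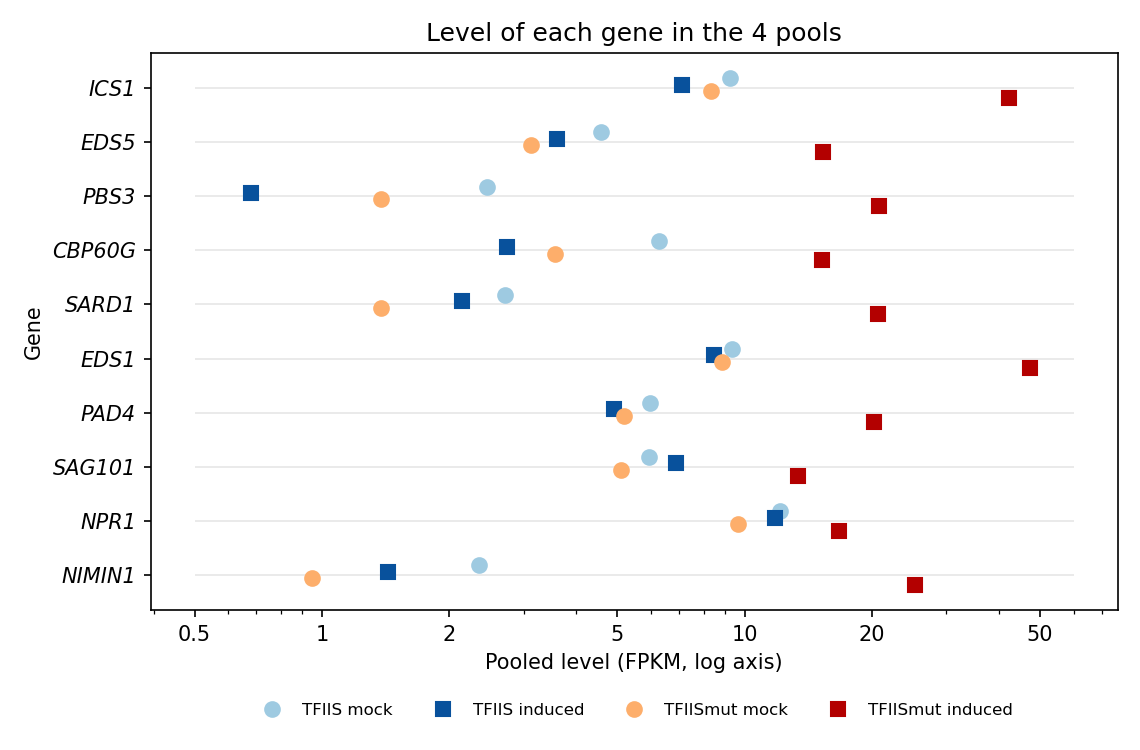
Level of each of the 10 genes (rows) in the 4 pools, in FPKM on a log axis; circles are mock pools and squares induced pools, 1 pooled value each with no error. The TFIISmut induced squares lie at 13.4 to 47.4 FPKM, to the right of the other 3 pools for every gene.

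Among the enzymes and the transporter of synthesis, ICS1 stood at 9.24 FPKM before and 7.12 after induction in the TFIIS line, and at 8.33 before and 42.3 after induction in the TFIISmut line. Only the last pool stands apart, 5.08-fold above its mock, a log2 difference of 2.21. EDS5, the exporter, stood at 4.58, 3.59, 3.12 and 15.3 FPKM in the same order, and was 4.91-fold above its mock, a log2 difference of 1.99. The ratio of ICS1 to EDS5 was 2.67 in TFIISmut mock and 2.76 in TFIISmut induced, and 2.02 in TFIIS mock and 1.98 in TFIIS induced.

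PBS3, which makes the glutamate conjugate, departed more. It stood at 2.46 FPKM before and 0.680 after induction in the TFIIS line, and at 1.38 before and 20.8 after induction in the TFIISmut line. The TFIISmut induced value was 15.1-fold above its mock, a log2 difference of 3.20. The lower pools of PBS3 also differed among themselves, TFIIS mock being 3.62-fold above TFIIS induced. The ratio of ICS1 to PBS3 was 6.03 in TFIISmut mock and 2.03 in TFIISmut induced; it was 3.75 in TFIIS mock and 10.5 in TFIIS induced, so it also varied widely among the other pools.

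Of the transcription factors that activate ICS1, CBP60G stood at 6.28 FPKM before and 2.74 after induction in the TFIIS line, and at 3.55 before and 15.2 after induction in the TFIISmut line. SARD1 stood at 2.71, 2.14, 1.38 and 20.6 FPKM in the same order. CBP60G was the more abundant of these related factors in the 3 other pools and SARD1 in TFIISmut induced, where the ratio of CBP60G to SARD1 was 0.737 against 2.57 in TFIISmut mock. Against that mock CBP60G was 4.28-fold higher, a log2 difference of 1.83, and SARD1 15.0-fold, a difference of 3.18. Their coding sequences are 63.8% identical over aligned bases and share no run longer than 10 bases.

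In the EDS1 family, EDS1 stood at 9.32 FPKM before and 8.46 after induction in the TFIIS line, and at 8.85 before and 47.4 after induction in the TFIISmut line. The first 3 pools lie close together, and the last was 5.36-fold above its mock, a log2 difference of 2.3. PAD4, the partner that promotes salicylic acid and basal resistance, stood at 5.96, 4.90, 5.20 and 20.2 FPKM in the same order, with a difference of 1.78 and a ratio of 3.89 in the TFIISmut line. SAG101, the partner that works with NRG1 helper receptors in cell death, stood at 5.95, 6.87, 5.09 and 13.4 FPKM in that order, with a difference of 1.24 and a ratio of 2.63.

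The family was therefore graded, EDS1 above PAD4 above SAG101 in the size of the difference. PAD4 and SAG101 were nearly equal in TFIISmut mock, at a ratio of 1.02, and stood at 1.51 after induction. EDS1 over SAG101 went from 1.74 to 3.54. Columbia has a second copy, EDS1B (AT3G48080), whose coding sequence is 84.0% identical to that of EDS1, with a longest shared run of 44 bases, so reads longer than this that match perfectly can be told apart. EDS1B stood at 1.27, 1.61, 0.877 and 3.16 FPKM in that order, and EDS1 held 91.0% of the pair in TFIISmut mock and 93.8% in TFIISmut induced.

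NPR1 was the member with the smallest difference. It stood at 12.1 FPKM before and 11.8 after induction in the TFIIS line, and at 9.64 before and 16.7 after induction in the TFIISmut line, the highest of the 10 in each pool but the last. Its log2 difference of 0.73 in the TFIISmut line did not reach the rule. NIMIN1 had the largest, standing at 2.36, 1.44, 0.950 and 25.3 FPKM in the same order, 26.6-fold above its mock, a log2 difference of 3.75, which is rank 34 among the 14456 eligible genes. The transcript of this NPR1-binding repressor went from a ratio of 0.0985 to that of NPR1 in TFIISmut mock to 1.51 in TFIISmut induced, and was below NPR1 in the other 3 pools. The mock value of NIMIN1 is low, so both kinds of ratio are sensitive to it. NIMIN1 in TFIISmut induced was 10.7-fold above its value in TFIIS mock, and its ratio to NPR1 in TFIIS mock was 0.195.

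The same holds more widely, since TFIIS mock was above TFIISmut mock for 10 of 10 genes, a count with no share over all genes beside it. With TFIIS mock as control for the TFIISmut induced pool, 9 of 10 genes were higher, with a median difference of 1.84, beside 4.73% higher and 2.39% lower of 14622 eligible genes. EDS5, PBS3, SARD1 and NIMIN1 are eligible here only through the induced pool, and of the 6 members at 5 FPKM or more in TFIIS mock 5 were higher, beside 2.82% of 13885 genes. The values that this choice moved by more than 1.5 times were those of PBS3 (ratio 8.46), CBP60G (2.42), SARD1 (7.62) and NIMIN1. Rescaling the pools to a common sum shifted the median of all genes by -0.13, and then also 9 of 10 were higher, with a median of 1.98.

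**Figure D2:**
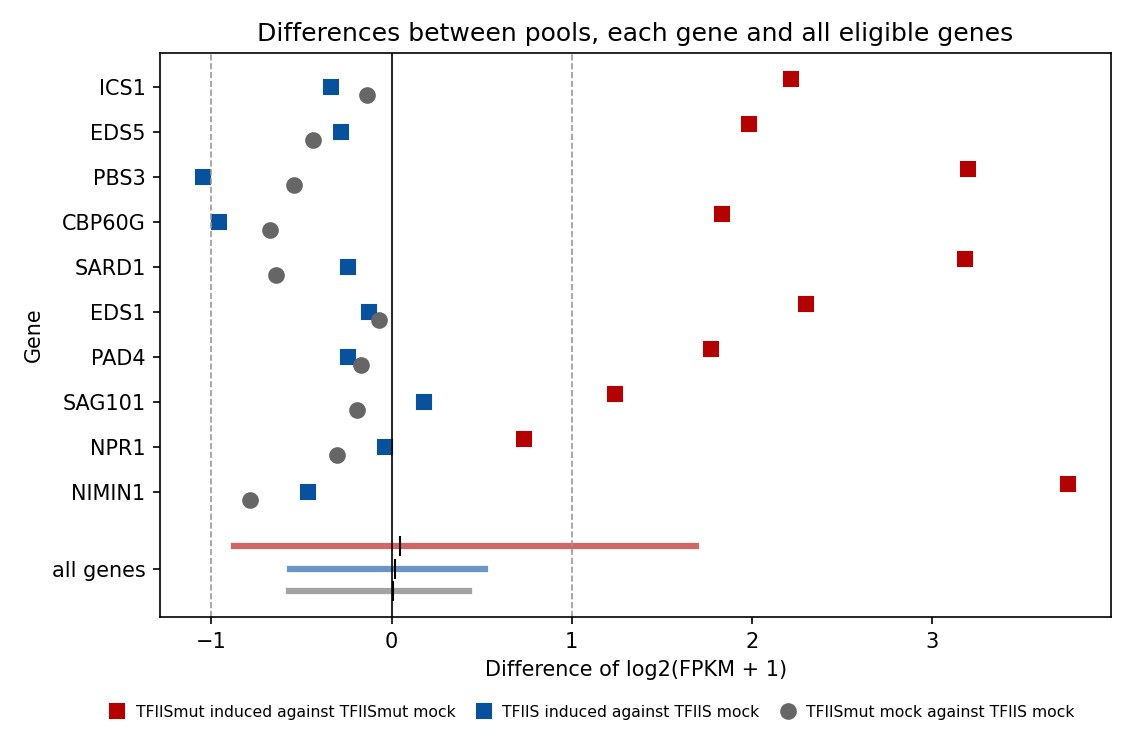
Difference of log2(FPKM + 1) for each gene in 3 comparisons of pools, with dashed lines at the 2-fold rule; the bars at the bottom span the central 95% of all eligible genes, with a tick at their median. In the TFIISmut line (red) 9 genes lie beyond 1, while induction in the TFIIS line (blue) and the comparison of mock pools (grey) lie at or below 0 for every gene except SAG101 (blue, 0.18).

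TFIIS itself (AT2G38560) stood at 742 FPKM in TFIIS induced and 87.0 in TFIISmut induced, so the inductions cannot be taken as equal apart from the mutation. For GFP-TFIIS, the unmutated protein, induction was set against TFIIS mock to describe that line. Only 6 of the 10 genes reached 5 FPKM in either pool, and 0 of these were called, where 0.690% of 14203 eligible genes were higher and 0.789% lower (1.48% in either direction). Of the 10, 9 lay below 0, a count with no share over all genes beside it. The median over the 10 was -0.26, against 0.01 over all genes at 1 FPKM or more in either pool and at 0 in neither. CBP60G was lowest among the eligible at -0.96, and PBS3, too low to be eligible, was at -1.04. SAG101 was the only gene above 0, at 0.18. Against TFIISmut mock as control instead, 5 lay above and 5 below 0, with a median of 0.05, so the direction in this line depends on which mock pool is used.

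The lines before induction were compared to show how far uninduced pools differ. All 10 genes were lower in TFIISmut mock than in TFIIS mock, by -0.07 for EDS1 to -0.78 for NIMIN1. This count has no share over all genes beside it. The median over the 10, which include genes too low to be eligible, was -0.37. It was -0.0002 over all genes at 1 FPKM or more in either pool and at 0 in neither. Of the 6 eligible, 0 passed the rule, where 0.248% of 14113 genes were higher and 0.787% lower (1.03% in either direction). CBP60G, at -0.68, had the largest difference of the 6. These offsets are smaller than the induction difference of the same gene in the TFIISmut line for 10 of 10 genes. Both use the same TFIISmut mock value, so this only restates that TFIISmut induced was above TFIIS mock for each gene.

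The comparison of induced pools uses no mock pool, and these pools differ in the level of TFIIS itself, as given above. Here 8 of 10 genes were higher in TFIISmut induced, and 0 lower, against 5.34% higher and 2.57% lower of 14619 eligible genes (7.91% in either direction), with a median of 2.24. Of the 8, 6 were under 5 FPKM in TFIIS induced (EDS5, PBS3, CBP60G, SARD1, PAD4 and NIMIN1) and are eligible only through the higher pool. Of the 4 members at 5 FPKM or more there, ICS1 and EDS1 were higher, beside 2.89% of 13799 genes at that level. PBS3 had the largest difference, 3.70 (a ratio of 30.6 over 0.680 FPKM), followed by NIMIN1 at 3.43 and SARD1 at 2.78. SAG101, at 0.87, and NPR1, at 0.47, did not reach the rule. Subtracting the TFIIS induction difference from that of TFIISmut asks whether the response differs between the lines. By the rule 9 of 10 genes were higher in this measure and 0 lower, against 6.57% higher and 2.97% lower of 14835 (9.54% in either direction). Only 4 members reached 5 FPKM in all 3 pools other than TFIISmut induced, and 3 of these were higher, beside 3.70% of 13256 genes. SAG101, at 1.06, was no longer called with quantile normalization (0.99) and without the 20 most abundant genes (0.97), which left 8. Its median was 2.49, and it was largest for PBS3 at 4.24 and NIMIN1 at 4.22 and smallest for NPR1 at 0.77. These comparisons share pools with each other and are not independent of the first.

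The other genes of the pathway were described from lists, with 69 genes of which 65 are in the table and 63 were measured, that is, at 1 FPKM or more in a TFIISmut pool and at 0 in neither. In TFIISmut induced against its mock, 49 of the 63 were eligible for a call, and 15 of these were higher and 0 lower, beside the 5.51% and 1.69% of all eligible genes. Of the 15, 8 were under 5 FPKM in the mock pool and are eligible only because they are high in the induced pool: FMO1, NRG1.2, NPR2, WRKY38, WRKY46, WRKY54, PR1 and PR2. Among the 41 listed genes at 5 FPKM or more in the mock pool, 7 were higher, beside 2.99% of all genes at that level. A median of 0.03 over all measured genes stands beside the list medians below. The plot of pathway groups shows how unevenly the 15 fell.

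**Figure D3:**
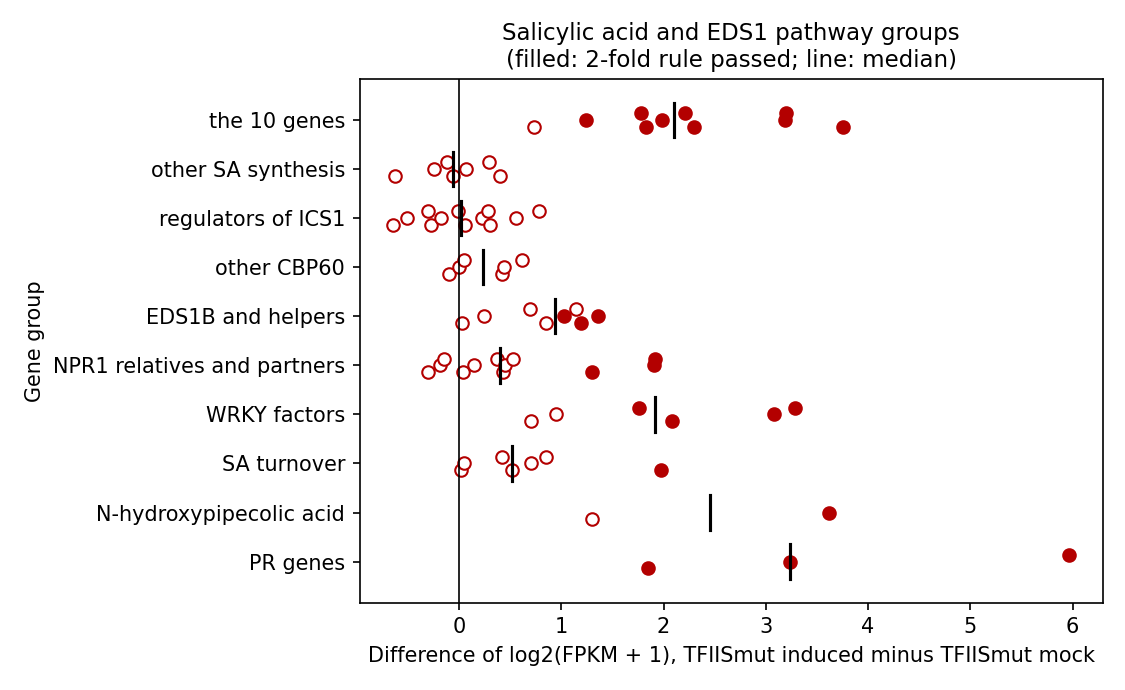
Difference of log2(FPKM + 1) between TFIISmut induced and TFIISmut mock for each measured gene of the 10 described and of 9 further groups. Filled circles pass the 2-fold rule, open circles do not pass it or are not eligible, and the line is the group median. Other synthesis enzymes and regulators of ICS1 lie around 0, at medians of -0.06 and 0.02, while WRKY factors lie at 1.92 and PR genes at 3.24.

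Of 7 other genes tied to salicylic acid synthesis, 4 were eligible for a call and 0 of these were called. The median over the 7 was -0.06. ICS2, the second isochorismate synthase, stood at 2.36 FPKM in TFIISmut mock and 3.44 in TFIISmut induced, so ICS1 went from 77.9% to 92.5% of the pair. ICS2 was at 7.24 FPKM in TFIIS mock and 4.10 in TFIIS induced, and was lower in TFIISmut mock than in TFIIS mock by the rule. In the phenylalanine route, PAL1 was at 81.5 and 100.1 FPKM in the TFIISmut pools and PAL3 at 11.1 and 6.86. EPS1, an acyltransferase-family protein that speeds the breakdown of the PBS3 product, was at 2.01 and 2.17 FPKM; it was named after its values were seen. EDS5H, a homologue of EDS5, was at 23.9 and 20.1 FPKM.

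Further regulators reported for the ICS1 promoter numbered 12 measured, of which 9 were eligible and 0 called, with a median of 0.02 over the 12. NAC019 and WRKY28 were under 5 FPKM in both TFIISmut pools and could not be called. The largest differences were those of NAC019, at 0.960 and 2.38 FPKM, NAC072, at 11.4 and 6.92, WRKY28, at 3.03 and 4.94, and CHE, a TCP factor, at 43.9 and 30.7. Of the 6 relatives of CBP60G, 4 were eligible and likewise 0 were called, with a median of 0.24 over the 6. CBP60D was too low to be eligible. CBP60D was at 0.768 and 1.71 FPKM, CBP60B at 20.04 and 27.3, and CBP60C at 23.7 and 22.2. CBP60A, a negative regulator of immunity, was at 11.2 and 15.6 FPKM.

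Among EDS1B and genes that act with EDS1 or beside it, 7 of 8 were eligible and 3 were higher, with a median of 0.94 over the 8. They were the helper receptor genes ADR1-L1, at 19.2 and 50.8 FPKM, ADR1-L2, at 15.6 and 32.7, and NRG1.2, at 3.53 and 9.38. With TFIIS mock as control the difference of ADR1-L2 was 0.96, under the rule. EDS1B had a difference of 1.15 but stayed under 5 FPKM. ADR1 helpers work with EDS1 and PAD4, and NRG1 helpers with EDS1 and SAG101.

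Of 12 NPR1 relatives and partners, 11 were eligible and 3 were higher, with a median of 0.40 over the 12. NPR2, the closest relative of NPR1, was at 1.34 and 7.84 FPKM, and NIMIN2, another NPR1-interacting protein, at 7.91 and 32.4. NPR3, a salicylic acid receptor that represses defence genes, was at 8.74 and 23.0 FPKM. NPR4, a receptor of the same kind, was at 15.7 and 23.1 FPKM and was not called. None of the 7 TGA factors was called, with differences from -0.30 to 0.43. NIMIN1 and NIMIN2 stood at a ratio of 0.120 in TFIISmut mock and 0.780 in TFIISmut induced.

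Of 6 measured WRKY factors linked to salicylic acid, 4 were higher, with a median of 1.92; of these 4 only WRKY70 reached 5 FPKM in the mock pool. WRKY70, which acts downstream of NPR1, was at 13.4 and 140 FPKM and WRKY46 at 1.71 and 21.9. WRKY38, a repressor of defence, was at 0.648 and 5.99 FPKM and WRKY54, a close relative of WRKY70, at 1.47 and 7.35. WRKY70 was also the only one of these WRKY factors lower in TFIISmut mock than in TFIIS mock by the rule, at 32.2 FPKM in the latter.

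Of 7 measured genes of salicylic acid turnover, 4 were eligible and 1 was higher, with a median of 0.52 over the 7. It was DMR6, a salicylic acid 5-hydroxylase, at 12.7 and 52.6 FPKM. S3H, the 3-hydroxylase, was at 2.19 and 3.57 FPKM, the glucosyltransferase gene UGT76B1 at 44.6 and 81.1, and GH3.5, which conjugates amino acids, at 13.1 and 22.0. The synthesis of N-hydroxypipecolic acid, the partner signal of systemic resistance, was measured in 2 genes. FMO1, its last enzyme, was at 0.590 and 18.5 FPKM, and ALD1, its first, at 0.156 and 1.84 FPKM, too low to be eligible. The output genes PR1, PR2 and PR5 were higher, 3 of 3, at 212, 14.5 and 34.2 FPKM in TFIISmut induced against 2.41, 0.643 and 8.76 in its mock. PR1 was also lower in TFIISmut mock than in TFIIS mock by the rule.

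In the TFIIS line, 43 genes of these lists were eligible, of which 0 were higher and 1, PR1, was lower, at 8.44 FPKM in TFIIS mock and 2.89 in TFIIS induced. These counts are near the shares over all eligible genes, 0.690% higher and 0.789% lower. Between the mock pools 43 genes of the lists were eligible, with 0 higher and 3 lower in TFIISmut mock: ICS2, WRKY70 and PR1. Over all eligible genes 0.248% were higher and 0.787% lower in that comparison. PR1 in TFIISmut mock, at 2.41 FPKM, was close to its value in TFIIS induced. Between the induced pools, 16 of 49 eligible were higher and 0 lower, beside 5.34% and 2.57% of all eligible genes. Of the 40 at 5 FPKM or more in TFIIS induced, 8 were higher, beside 2.89% of all genes at that level.

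The genes whose pattern over the 4 pools was most like that of ICS1 were found by Euclidean distance of log2(FPKM + 1) centred on each gene's mean, among 14834 genes. EDS1 was the fourth closest, at a distance of 0.16. AT1G20310 (0.10), AT3G10986 (0.11) and AT5G43450 (0.12) were closer, and LECRKA4.2 (AT5G01550), a lectin receptor kinase gene, was rank 5 at 0.16. AT5G43450 was at 37.8, 29.4, 37.6 and 174 FPKM in the pool order used above. AT1G20310 was at 0.611, 0.294, 0.537 and 6.43 FPKM, and AT3G10986 at 0.567, 0.285, 0.567 and 6.17. LECRKA4.2 was at 1.26, 0.592, 0.930 and 7.29 FPKM. AT1G20310, AT3G10986 and LECRKA4.2 reached 5 FPKM only in TFIISmut induced, and the added 1 FPKM brings these low genes close. Among the other members, PAD4 was rank 100 and EDS5 rank 119, and NPR1 was the most distant at rank 1863. With 4 values per gene, such likeness is only a description.

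Because TFIIS acts on elongating polymerase, the differences were also read against gene span. Over all eligible protein-coding genes, the difference in the TFIISmut line was graded by span: the median was 0.18 for 874 genes up to 1000 bp, 0.06 for 2020 genes of 2500 to 3000 bp, -0.02 for 1003 genes of 3500 to 4000 bp and -0.14 for 1120 genes above 5000 bp. The share called higher was 14.5%, 4.70%, 2.39% and 1.16% in these bins. Genes called lower numbered 52, 20, 8 and 10 in the same bins, so lower calls were also most frequent up to 1000 bp. The lower and upper quartiles were -0.31 and 0.59 up to 1000 bp, and -0.28 and -0.006 above 5000 bp. The spread of the differences was thus also wider in the shortest bin than in the longest. Between the mock pools the medians of all 9 span bins lay from -0.01 to 0.04, and in the TFIIS line the grading had the opposite sign, from -0.05 up to 1000 bp to 0.10 above 5000 bp.

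The 10 genes did not follow that grading among themselves. NIMIN1, the shortest at 623 bp, had the largest difference. SARD1, the longest at 4459 bp, had a difference of 3.18, in a bin of 1071 genes of which 1.96% were higher. ICS1 (3883 bp), EDS5 (3788 bp) and PBS3 (3609 bp) lie in the bin of which 2.39% were higher. The smallest differences belong to SAG101 (2484 bp) and NPR1 (2911 bp), which are among the shorter members.

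**Figure D4:**
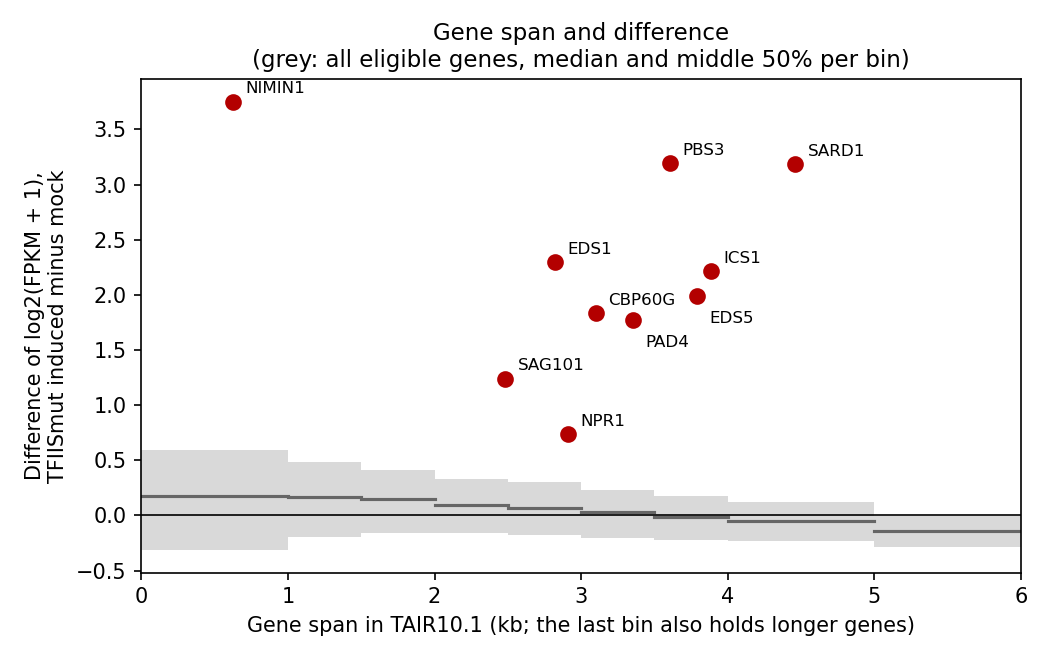
Gene span in TAIR10.1 (kb) against the difference of log2(FPKM + 1) between TFIISmut induced and TFIISmut mock; red points are the 10 genes, and grey lines and bands are the median and middle 50% of all eligible protein-coding genes per span bin. The grey medians go from 0.18 in the shortest bin to -0.14 in the longest, and the 10 genes lie above the band of their bin.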

How the data were processed

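The authors deposited 1 table of 32705 genes with a pooled value per condition. No header or label names its unit; the values were read as FPKM that the authors had scaled to transcript length and library size, from their decimals and from column sums that differ. The submitters' processing notes name Bowtie2 2.3.5; the quantification tool, genome build, annotation and pooling method were not given in the sources used here. Libraries were made with a stranded mRNA kit, per the labels' protocols.

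The 38 rows with repeated identifiers were left out, and 32009 of the remaining 32667 matched TAIR10.1. The design written for this work provided for a test only if values per library were given; with pooled values no test, standard error or left-out library was possible. Differences were taken on log2(FPKM + 1) with the 2-fold rule on the whole table, genes at 0 in a compared pool being left out. The calling step was tested on simulated data. Promoters, spans and coding identity came from the TAIR10.1 genome and RefSeq annotation; a gene was matched by identifier, never by the table's merged intervals. Python 3.11.15, pandas 2.3.3 and numpy 2.4.6 were used. Named pathway genes are the 4 largest absolute differences per list in the TFIISmut line, plus TFIIS, EDS1B and PR1, PR2 and PR5; EPS1, genes named beside a count and overlapping neighbours were named outside this rule, after their values were seen. Of the listed genes, SARD4, NTL9, BON1 and NIMIN3 were not analysed here, and 1 group of tissue markers is not reported here. The members and lists were chosen with earlier results of these data known, so none of the counts is independent evidence.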

Additional observations from a re-analysis of the deposited data

Results flagged for a closer look

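In 9 of the 10 genes, induction went with a higher value in the TFIISmut line and a lower one in the TFIIS line. This count has no share over all genes beside it, so whether it is unusual is not known. The difference of the induction effects on the log2 scale, TFIISmut minus TFIIS, was 2.55 for ICS1, 2.27 for EDS5 and 4.24 for PBS3. It was 2.79 for CBP60G and 3.43 for SARD1, the activators of ICS1. It was 2.42 for EDS1, 2.01 for PAD4, 0.77 for NPR1 and 4.22 for NIMIN1. None of these differences was tested, because each condition is a single pooled value. In the TFIIS line the part below 0 was small for NPR1, at -0.03, and EDS1, at -0.13, and with TFIISmut mock as control 5 of the 10 genes lay above 0.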

How the results depend on the processing

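No paired analysis was possible because all columns hold pooled values without replicate numbers; fits per library, the replicate block and left-out libraries were not run for the same reason. The count of members called moved by no more than 1.5 times in 41 of 51 combinations of a comparison and an alternative, and no called member changed sign; SAG101 lost its call in the difference of effects under quantile normalization and without the 20 most abundant genes. For TFIIS induced against its mock the count of 0 became 1 with a pseudocount of 0.1, with no minimum on FPKM, with the 1.5-fold rule, with pools rescaled to the same sum, and without organelle genes and rescaled; in every case the gene was lower. For the mock pools it became 1, lower, with the 1.5-fold rule. With the pools other than TFIISmut induced held to 5 FPKM or more, alternatives chosen after seeing the data, fewer members could be called: the 9 higher in TFIISmut induction became 4, or 5 with TFIIS mock as control, the 8 between induced pools became 2, and the 9 in the difference of effects became 3. Of 470 alternative values for single genes, 36 moved by more than 0.18 on the log2 scale, the robust SD between mock pools: 22 with the pseudocount of 0.1, under which NIMIN1 had a difference of 4.6, and 14 with the mock pool of the other line. Read depth and the spread between libraries are unknown, which limits every value under 5 FPKM most.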
